A study of Mus musculus with 6 samples.

Results

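The genes described here run the synthesis of cholesterol from acetyl-CoA, the SREBP switch that sets its pace, and the movement and export of the sterol that is made. The list held 33 genes, chosen by symbol with earlier results of these data known. Of the list, 29 had a probe annotated with exactly 1 symbol, out of 19938 such genes on the array. These were 18 of 19 synthesis enzymes, 6 of 7 genes of SREBP control and 5 of 7 genes of sterol transport and of the oxysterol receptors. Acat2, Mbtps2, Soat1 and Nr1h2 had no such probe and were not analysed here. Where a gene had more than 1 probe, which was the case for Idi1 and Fdft1, the probe with the highest mean over the 6 arrays was used.

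Expression was measured in N2A, a mouse neuroblastoma cell line, in which a hairpin RNA was used to lower Pbcas4, the transcribed mouse remnant of the protein-coding gene that humans keep as BCAS4. The Pbcas4 shRNA group held 3 arrays, from transient transfections of an shRNA construct specific to Pbcas4, and the scramble group held 3 arrays, from transfections of a construct with a permuted sequence. Cells of both groups carried the same vector backbone with the hairpin under a U6 promoter, received 4 μg of construct and were harvested after 72 h. The table of oligonucleotides lists 1 hairpin against Pbcas4, no untransfected cells were analysed here, and no value of Pbcas4 was used, so what the hairpin did to its target cannot be read beside the values below. Values are log2 expression per probe as deposited, and a difference of 1 is a factor of 2.

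Animal cells build cholesterol in the endoplasmic reticulum and cytosol, in a chain that passes through mevalonate, the isoprenoid diphosphates, squalene and lanosterol. When membranes are poor in sterol, the escort protein SCAP carries the transcription factor SREBP2 to the Golgi, where a pair of proteases releases its active part, which switches on nearly all enzymes of the chain. When sterol is plentiful, INSIG proteins hold SCAP back, and oxysterols activate the LXR receptors, which turn on the exporters ABCA1 and ABCG1. Neurons and neuroblastoma cells make their own cholesterol, as growing membranes need it.

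The arrays were alike in their overall distribution, with medians of 7.75 to 7.86 and sorted values that differed by at most 0.17. Scramble replicate 1 stood apart from its group, since it correlated with the shRNA arrays at 0.990 to 0.993 over all probes and with the other scramble arrays at 0.987 and 0.988. Of 11 measured markers of the sympathoadrenal lineage of neuroblastoma, 9 were above the median probe, Chgb at the percentile 97.3, and the neurofilament genes Nefl and Nefm lay at the percentiles 24.9 and 25.5. Of the marker lists of macrophages, glia and hepatocytes, 5 of 6, 4 of 5 and 3 of 4 genes lay below the median probe, against 2 of 7 fibroblast markers. All 29 members lay above it. Array values are given from replicate 1 to replicate 3 throughout. The mean of 11 proliferation genes was 12.72, 12.54 and 12.52 with the shRNA, against 12.55, 11.73 and 11.28 with the scramble construct, a spread among the scramble arrays that the shRNA arrays did not have. The mean of the 11 neuroblastoma markers was 10.47, 10.33 and 10.26 with the shRNA, against 10.83, 10.98 and 10.76 with the scramble construct, without overlap. The part of growth state or of differentiation in the values below was not tested.

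Most enzymes of the chain had lower means after transfection of the Pbcas4 shRNA, by modest amounts that did not pass the adjusted test. The median over genes of sterol transport and of LXR lay closer to 0, although Abca1 among them differed by -0.53. Of the 18 enzymes, 16 had the lower mean with the shRNA and 2 the higher one, and the median log2 difference was -0.33 over the enzymes, against 0.0031 over all genes. It was -0.26 over the 6 genes of SREBP control and -0.08 over the 5 genes of transport and LXR. Over all members, 24 of 29 had a lower mean, or 82.8%, against 49% of all genes. No gene passed limma at an adjusted p under 0.05 with a difference over 0.5, 0 of 29 members and 0 of 19938 genes, a share of 0% (lowest adjusted p among members 0.363). At an unadjusted p under 0.05, limma gave 9 members lower, or 31%, against 5.46% of all genes, and 0 members higher, against 6.22% of all genes. The 9 were 8 enzymes and Lpin1. As the members were chosen with earlier results of these data known, shares here and below are a description and no test of the list. Leaving out shRNA replicate 1, shRNA replicate 3 or scramble replicate 2 brought the 9 down to 4 each time, against 4.81%, 3.14% and 2.88% of all genes, and without scramble replicate 1 the count was again 9, against 8.03%. The same 4 enzymes, Pmvk, Ggps1, Cyp51 and Tm7sf2, were lower at this level with all arrays and in each of 14 alternatives. These alternatives draw on the same arrays and are not independent, and the share of all genes that did the same was not counted.

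**Figure D1:**
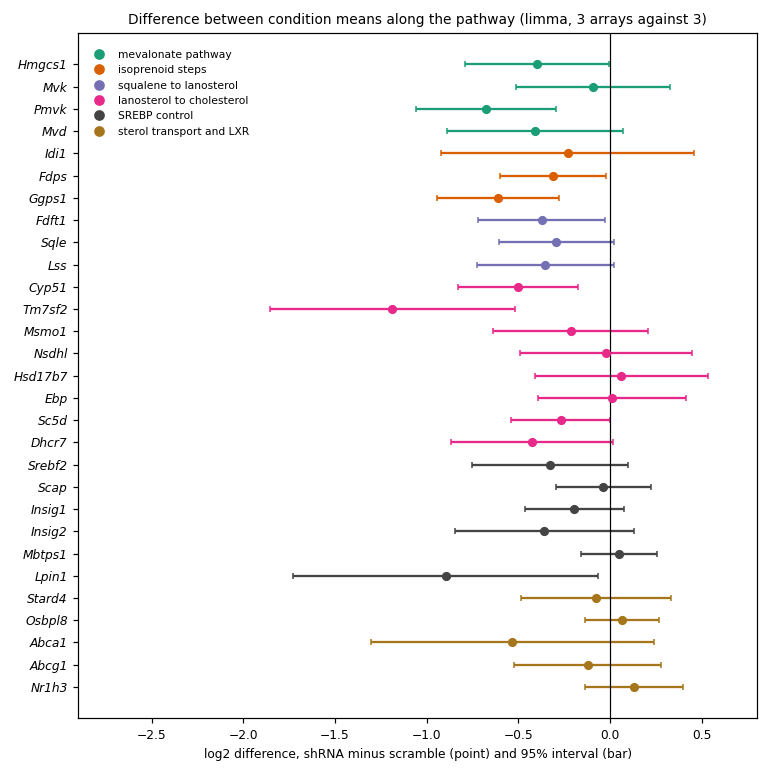
Log2 difference, shRNA minus scramble, of the 29 measured members in order of the pathway, with the 95% interval from limma as a bar (3 arrays against 3) and the stage as colour. Tm7sf2 lies farthest to the left at -1.19, and Nsdhl, Hsd17b7 and Ebp lie between -0.02 and 0.06.

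The chain opens with the enzymes that make and activate mevalonate. Hmgcs1, the cytosolic HMG-CoA synthase, was at 11.93, 12.27 and 12.01 in the shRNA arrays and at 12.43, 12.75 and 12.21 in the scramble arrays. The highest shRNA array lay above the lowest scramble array, so the groups overlapped, although each shRNA array was lower than the scramble array of the same number. The log2 difference was -0.40 (standard error, SE, 0.16 and adjusted p = 0.487, both by limma). Pmvk, phosphomevalonate kinase, was at 9.87, 10.31 and 10.06 in the shRNA arrays and at 10.53, 10.98 and 10.76 in the scramble arrays. All 3 shRNA arrays lay below all 3 scramble arrays, with a gap of 0.22 between them. Its log2 difference was -0.67, or a factor of 0.627 (SE 0.16, adjusted p = 0.363). Differences between arrays of the same number were -0.66, -0.67 and -0.70 for Pmvk, the narrowest spread of any enzyme. Mvd, the decarboxylase that yields isopentenyl diphosphate, averaged 10.73 ± 0.31 with the shRNA and 11.14 ± 0.28 with the scramble construct (SD, n = 3 each). Mvk, mevalonate kinase, differed by -0.09, with a 95% interval of -0.52 to 0.33, and its arrays overlapped.

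The isoprenoid steps follow, from which prenylated proteins, dolichol and ubiquinone branch off. Fdps, farnesyl diphosphate synthase, was at 12.27, 12.60 and 12.49 in the shRNA arrays and at 12.71, 12.91 and 12.68 in the scramble arrays. These groups did not overlap, but the gap was only 0.076 and the log2 difference -0.31 (SE 0.12, adjusted p = 0.469). Ggps1, which makes geranylgeranyl diphosphate on the branch to prenylated proteins, was at 10.45, 10.22 and 9.99 in the shRNA arrays and at 10.79, 10.73 and 10.98 in the scramble arrays. The groups were parted by 0.28, and the log2 difference was -0.61, or a factor of 0.655 (SE 0.14, adjusted p = 0.363). Ggps1 was the only enzyme that was highest, among the shRNA arrays, in replicate 1. Idi1, the isomerase of isopentenyl diphosphate, had the widest scatter of the enzymes among the scramble arrays, where replicate 3 (10.995) lay far below replicates 1 and 2 (12.07 and 11.99). Its shRNA arrays lay between, at 11.28 to 11.59, and the log2 difference was -0.23 with a 95% interval of -0.92 to 0.46. The other probe of Idi1 gave -0.22.

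Squalene and lanosterol are made by the next enzymes, which commit the chain to sterols. Fdft1, squalene synthase, was at 12.63, 13.02 and 12.95 in the shRNA arrays and at 13.13, 13.45 and 13.14 in the scramble arrays. The groups did not overlap, with a gap of 0.11, and the log2 difference was -0.37 (SE 0.14, adjusted p = 0.469), against -0.28 for its other probe. Sqle, squalene epoxidase and a step at which the chain is controlled, was at 12.06, 12.29 and 12.22 in the shRNA arrays and at 12.50, 12.69 and 12.27 in the scramble arrays. Only scramble replicate 3 fell within the range of the shRNA arrays, and the log2 difference was -0.29 (SE 0.13, adjusted p = 0.517). Lss, lanosterol synthase, had a log2 difference of -0.35, and its groups overlapped by 0.02.

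The enzymes that turn lanosterol into cholesterol were the most uneven stage. Cyp51, the lanosterol demethylase, was at 11.42, 11.68 and 11.53 in the shRNA arrays and at 11.92, 12.31 and 11.91 in the scramble arrays. The groups were parted by 0.24, and the log2 difference was -0.50, or a factor of 0.706 (SE 0.14, adjusted p = 0.394). Tm7sf2, a sterol C14 reductase that acts on the product of Cyp51, was at 8.76, 9.70 and 9.34 in the shRNA arrays and at 10.05, 10.77 and 10.55 in the scramble arrays. Its groups were parted by 0.35, the widest gap among the members. The log2 difference was -1.19, or a factor of 0.439 (SE 0.28, 95% interval -1.85 to -0.52, adjusted p = 0.363 by limma, exact permutation p = 0.1, the smallest that 3 arrays against 3 allow). Between arrays of the same number it was -1.29, -1.07 and -1.21, so that much of the spread within each group was shared by number. With the replicate number as a block the SE was 0.10, and the adjusted p of 0.230 was the lowest among the members. Sc5d, the C5 desaturase, was at 11.23, 11.44 and 11.24 in the shRNA arrays and at 11.57, 11.72 and 11.43 in the scramble arrays. Its groups overlapped by 0.013, and the log2 difference was -0.27 (SE 0.11). Dhcr7, which reduces 7-dehydrocholesterol in the last step of a branch of the chain, averaged 11.47 ± 0.33 with the shRNA and 11.90 ± 0.19 with the scramble construct (SD, n = 3 each). Msmo1, the methylsterol oxidase, had a log2 difference of -0.22.

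A run of enzymes within this stage showed no such difference between the means. Nsdhl and Hsd17b7, which act in the removal of the methyl groups at C4, had log2 differences of -0.02 and 0.06, and Ebp, the sterol isomerase, had 0.01. Their 95% intervals were -0.49 to 0.45, -0.41 to 0.53 and -0.39 to 0.41, wide enough to hold a difference of the size seen in Fdft1. In all of them the low mean of the scramble group came from replicate 3, at 11.58 for Nsdhl, 10.99 for Hsd17b7 and 10.04 for Ebp. The other scramble arrays were at 12.16 and 12.22 for Nsdhl, 11.62 and 11.67 for Hsd17b7 and 10.54 and 10.56 for Ebp. Without scramble replicate 3 the shRNA arrays lay below the scramble arrays for these genes too, and the number of members parted in this way was 15, against 9.86% of all genes.

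**Figure D2:**
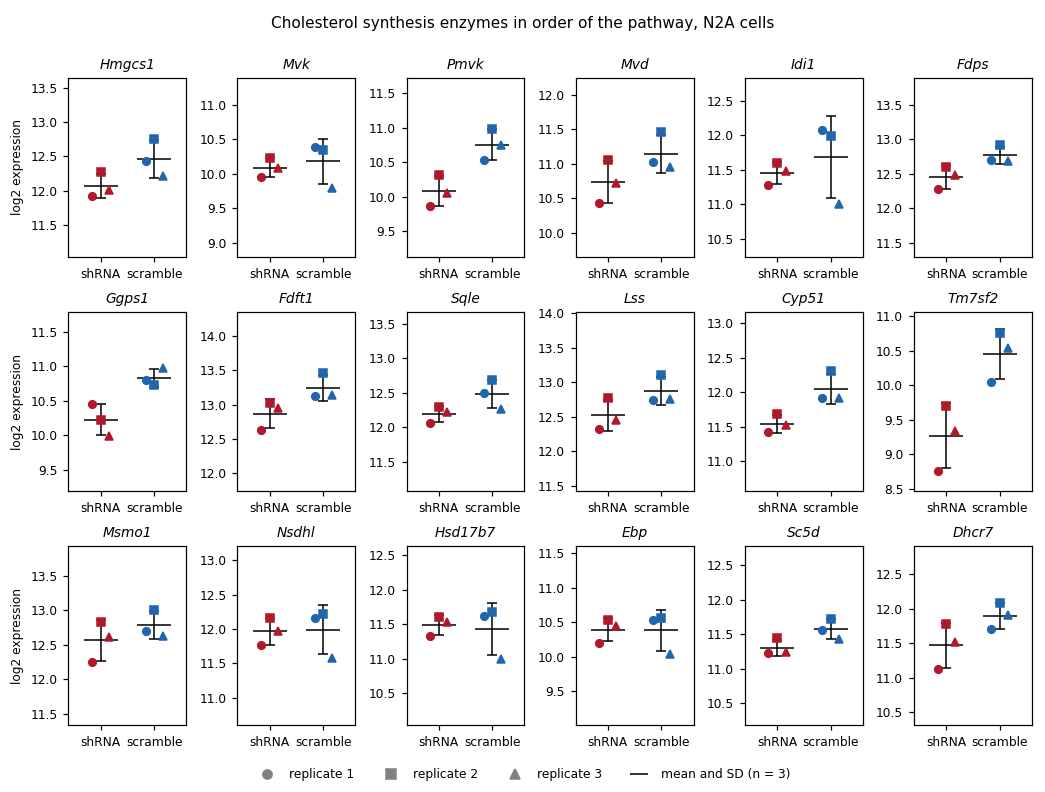
Deposited log2 expression of the 18 measured synthesis enzymes in each array of N2A cells, in order of the pathway. Symbols are replicates, bars are the mean and SD of 3 arrays, and every panel spans the same range of log2 units around its own level. The shRNA arrays lie below all scramble arrays for Pmvk, Fdps, Ggps1, Fdft1, Cyp51 and Tm7sf2.

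Over the members, 6 lay lower in all shRNA arrays than in any scramble array, or 20.7%, against 7.63% of all genes, and 0 lay higher without overlap, against 9.13% of all genes. All 6 were enzymes. Groups that are parted with all arrays stay parted when an array is left out, so this count could only stay or rise. It stayed at 6 without shRNA replicate 1, shRNA replicate 3 or scramble replicate 2, against 13.8%, 9.8% and 9.58% of all genes. The count was 16 without shRNA replicate 2, against 12.9% of all genes, and 12 without scramble replicate 1, against 19.7%.

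The enzymes shared their order among arrays, which within the shRNA group was not particular to them. In that group, replicate 1 was the lowest for 17 of 18 enzymes and replicate 2 the highest for 17, in each case all but Ggps1. All 6 genes of SREBP control likewise had replicate 1 lowest and replicate 2 highest. The mean of 19 genes of fatty acid synthesis, described below, was 11.38, 11.72 and 11.57 with the shRNA, in the same order. The share of all genes with this order was not counted. Within the scramble group, replicate 2 was the highest for 15 enzymes and replicate 3 the lowest for 12. The mean of the 18 enzymes was 11.18, 11.56 and 11.37 with the shRNA, against 11.70, 11.93 and 11.53 with the scramble construct, so that scramble replicate 3 lay just below shRNA replicate 2. After quantile normalization these means were 11.20, 11.53 and 11.37 with the shRNA, against 11.68, 11.94 and 11.56 with the scramble construct, and the groups no longer overlapped. Enzymes for which scramble replicate 1 was the lowest of its group were Pmvk, Fdft1, Lss, Tm7sf2 and Dhcr7.

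Arrays carry replicate numbers, and the distance between the constructs was not the same at each number. Between arrays numbered 1, all 18 enzymes were lower with the shRNA, and likewise between those numbered 2, while 13 of 18 were lower between those numbered 3. The median over the enzymes was -0.45, -0.37 and -0.19, against 0.045, -0.028 and -0.011 over all genes. As the enzymes shared their order among arrays, their counts at a given number are not independent results. Over all members, 17 of 29 were lower at all 3 numbers, or 58.6%, against 18% of all genes, and only Osbpl8 was higher at all 3, or 3.45%, against 19.4% of all genes. With the number as a block, limma gave 14 members lower at an unadjusted p under 0.05, or 48.3%, against 7.35% of all genes, and 0 higher, against 7.2%. Past adjustment, with a difference over 0.5, the block gave 0 of 29 members and 0% of all genes. The genes added to the 9 were Mvd, Lss, Dhcr7, Srebf2 and Insig2. Enzymes that were higher at number 3 were Mvk, Idi1, Nsdhl, Hsd17b7 and Ebp, at 0.28 to 0.55.

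**Figure D3:**
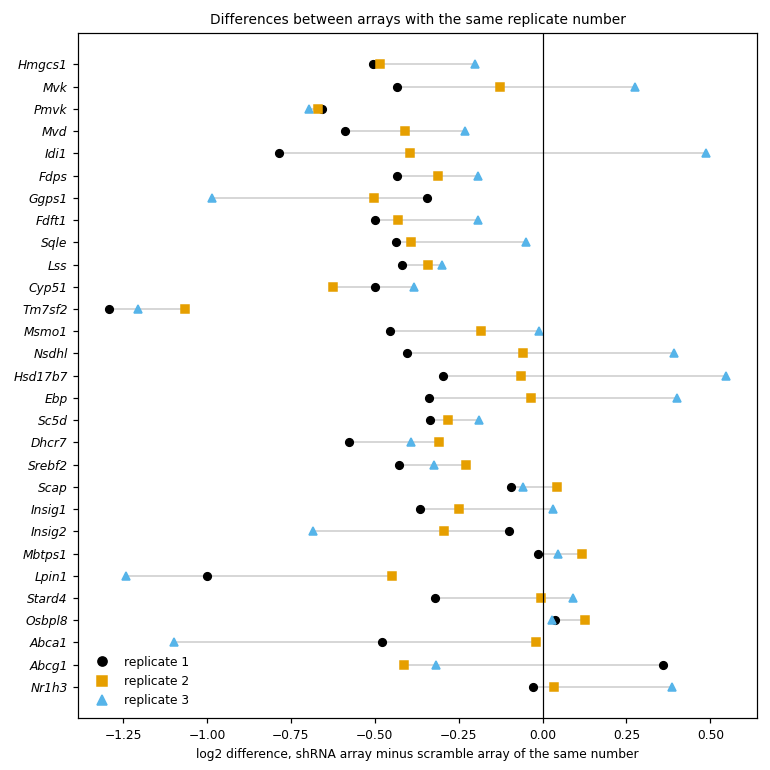
Log2 difference between the shRNA array and the scramble array with the same replicate number, for each of the 29 members in order of the pathway, with symbols for the replicate number. Tm7sf2 and Pmvk keep close to their own value at all numbers, at -1.29 to -1.07 and -0.70 to -0.66, while Idi1 is at -0.79 at number 1 and at 0.49 at number 3.

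The genes that govern SREBP divided between those close to 0 and those with a lower mean. Srebf2, which encodes SREBP2, was at 12.11, 12.70 and 12.52 in the shRNA arrays and at 12.54, 12.93 and 12.84 in the scramble arrays. The groups overlapped, each shRNA array was lower than the scramble array of its number, and the log2 difference was -0.33 (SE 0.18, adjusted p = 0.610). Insig1, a target of SREBP that retains SCAP, was at 12.64, 12.76 and 12.72 in the shRNA arrays and at 13.002, 13.008 and 12.691 in the scramble arrays, and only scramble replicate 3 lay within the range of the shRNA arrays. The log2 difference of Insig1 was -0.19, with a 95% interval of -0.47 to 0.08. Insig2, its relative, was at 10.91, 11.31 and 11.004 in the shRNA arrays and at 11.01, 11.60 and 11.69 in the scramble arrays. Here scramble replicate 1, not replicate 3, lay among the shRNA arrays, and the log2 difference was -0.36 (95% interval -0.85 to 0.13). Scap, the escort of SREBP, and Mbtps1, the site-1 protease, had log2 differences of -0.04 (95% interval -0.30 to 0.22) and 0.05 (95% interval -0.16 to 0.26).

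Lpin1 had the second largest difference of the members. It encodes a phosphatidate phosphatase that also acts in the nucleus, where it restrains SREBP. Lpin1 was at 9.98, 11.20 and 10.58 in the shRNA arrays and at 10.98, 11.65 and 11.82 in the scramble arrays, with a log2 difference of -0.90 (SE 0.35, adjusted p = 0.469). The groups overlapped, since shRNA replicate 2 lay above scramble replicate 1, and the value ranged from -1.20 to -0.59 over the alternatives. Between arrays of the same number the difference was -1.001, -0.45 and -1.24.

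Sterol carriers, exporters and receptors showed differences in either direction. Stard4, a soluble carrier of sterol and a target of SREBP2, was at 10.51, 10.97 and 10.60 in the shRNA arrays and at 10.83, 10.98 and 10.51 in the scramble arrays. The groups spanned almost the same range, and the log2 difference was -0.08 (95% interval -0.49 to 0.33). Abca1, which exports cholesterol to lipoproteins, was at 8.37, 9.19 and 8.85 in the shRNA arrays and at 8.85, 9.21 and 9.95 in the scramble arrays. Its log2 difference of -0.53 (SE 0.32, adjusted p = 0.656) was -0.22 without scramble replicate 3, and between the arrays numbered 2 it was -0.02. Abcg1, a second exporter, and Nr1h3, which encodes LXR alpha, lay near the median of the arrays, at the percentiles 54.6 and 51.8 of all probes, and differed by -0.12 and 0.13. Osbpl8, which exchanges lipids between the endoplasmic reticulum and the plasma membrane, differed by 0.06 (95% interval -0.14 to 0.27).

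**Figure D4:**
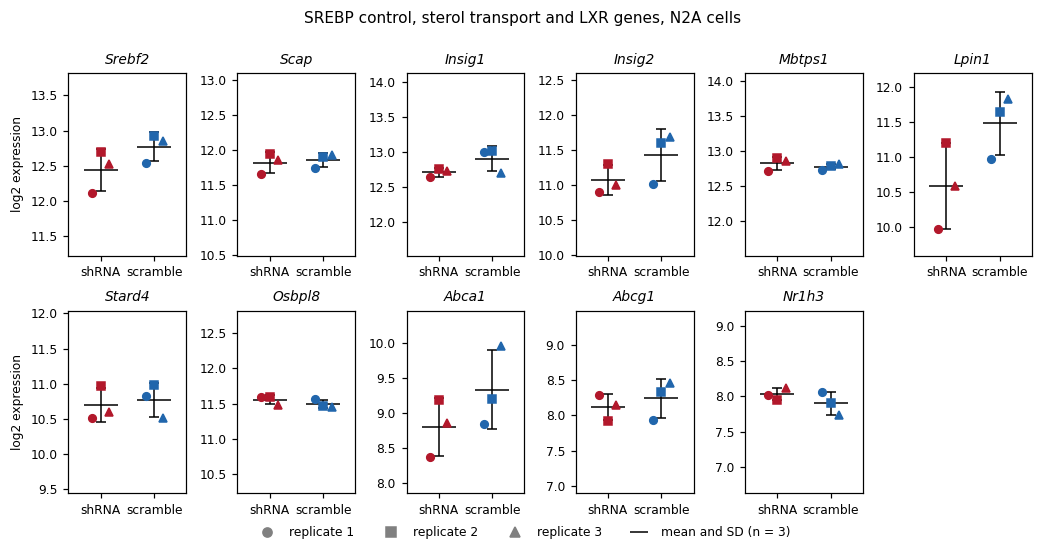
Array by array, the deposited log2 expression of SREBP control (6 genes) and of sterol transport and LXR (5 genes). Symbols are replicates, bars are the mean and SD of 3 arrays, and every panel spans the same range of log2 units. The shRNA and scramble arrays overlap in each panel, and Lpin1 shows the largest difference of means, at -0.90.

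Promoter windows were searched for the short motifs with which SREBP and its partners are known to bind. Windows of RefSeq (GRCm38.p6) ran from 250 bases before to 50 after a start site. They were found for 24 of the 29 members, among them 15 of the 18 enzymes, but not Fdps, Fdft1 or Sqle. The NF-Y box CCAAT, on either strand, was present for 15 of 15 enzymes (100%), 3 of 6 genes of SREBP control and 0 of 3 of transport and LXR, against 41.1% of all genes and 37.4% of all windows. The Sp1 box GGGCGG, on either strand, was present for 13 of 15 enzymes (86.7%), 5 of 6 genes of SREBP control (83.3%) and 2 of 3 of transport and LXR (66.7%), against 38.2% of all genes and 35.7% of all windows. The core of the sterol regulatory element, TCACNCCAC, on either strand, was found for Hmgcs1 alone, 1 of 15 enzymes (6.67%), against 1.44% of all genes and 1.24% of all windows. Only this exact core was searched, so a site with other letters or outside the window would be missed. Counted by window, to set beside the shares of all windows, the enzymes had 18 windows. The NF-Y box was in 15 of them, the Sp1 box in 14 and the sterol core in 1. Matches of different motifs overlapped in 0 places in the windows of the members. The NF-Y box was present in enzymes with a lower mean and also in Hsd17b7 and Ebp, which had none, and a match is a description of these letters and no proof of binding. The windows that follow are those of the 4 enzymes that were lower in all fits, with Hmgcs1 for its sterol element. Capitals mark the motif as it reads on the strand of the gene, where ATTGG is CCAAT on the opposite strand.
Hmgcs1, sterol element at -137, chr13:119690204-119690233, plus strand: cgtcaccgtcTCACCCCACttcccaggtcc
Hmgcs1, NF-Y box at -45, chr13:119690294-119690323, plus strand: tccccgcctctcATTGGctgaaagcggatc
Pmvk, NF-Y box at -136, chr3:89454393-89454422, plus strand: aactcaggttggCCAATtcacagcatctag
Ggps1, NF-Y box at -55, chr13:14063526-14063555, minus strand: cagtcttctaggCCAATcggtaaactgacg
Cyp51, NF-Y box at -29, chr5:4104709-4104738, minus strand: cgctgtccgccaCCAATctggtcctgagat
Tm7sf2, NF-Y box at -47, chr19:6067880-6067909, minus strand: ctcccagcgctgATTGGctactgtgctggg
Positions are those of the left end of the motif from the start site, in the direction of the gene. In Tm7sf2, the gene with the largest difference, the box lay 47 bases upstream of the start. Hmgcs1 held 4 such boxes besides its sterol element, and Mvk, whose arrays overlapped, held 5.

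**Figure D5:**
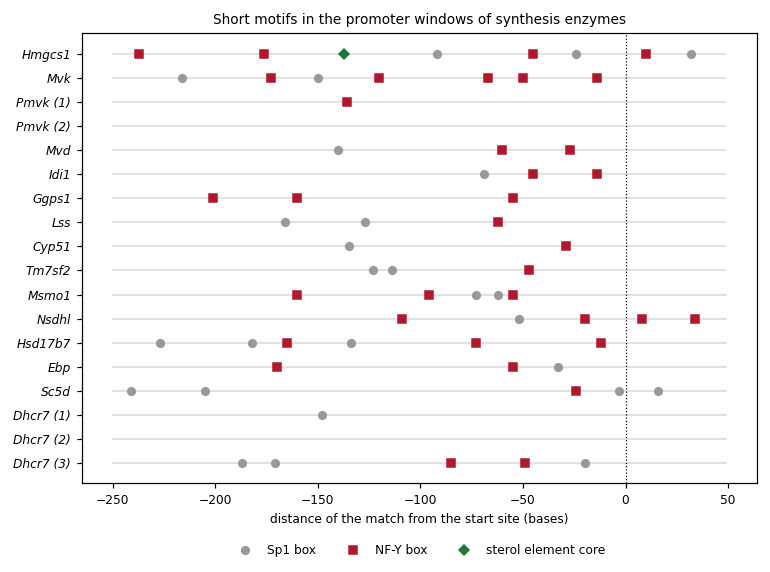
Distance from the start site, in bases, of matches to the NF-Y box, the Sp1 box and the core of the sterol element in the promoter windows of 15 synthesis enzymes, 1 row for each window (a number in brackets where a gene has more than 1). Every enzyme has an NF-Y box in at least 1 window, and the sterol element core occurs only in Hmgcs1.

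Other genes of sterol handling were split evenly in direction. Of 34 such genes measured, 17 had a lower mean and 17 a higher one, with a median log2 difference of 0.0047. At an unadjusted p under 0.05, 3 were lower and 5 higher, against 5.46% and 6.22% of all genes. Without overlap, 4 were lower and 6 higher, against 7.63% and 9.13% of all genes. Mylip, an LXR target whose product marks lipoprotein receptors for degradation, was at 9.92, 10.06 and 9.94 in the shRNA arrays and at 10.61, 10.64 and 10.49 in the scramble arrays. All shRNA arrays lay below all scramble arrays, with a log2 difference of -0.61 (SE 0.09, adjusted p = 0.340). Lbr, which shares the C14 reductase activity of Tm7sf2, was at 12.14, 12.29 and 12.13 in the shRNA arrays and at 12.09, 11.80 and 11.68 in the scramble arrays. Its log2 difference was 0.33 (SE 0.13, adjusted p = 0.468), opposite in sign to that of Tm7sf2. Abca7, a lipid transporter, had -0.38, and Rxra, the partner of LXR, had 0.35.

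Fatty acid synthesis, which SREBP1 governs, had a median closer to 0 than the enzymes, although most of its genes also had a lower mean. Of 19 genes, 14 had a lower mean, against 49% of all genes, and 5 a higher one, with a median log2 difference of -0.10. Single genes ranged from -0.75 to 0.34, against -1.19 to 0.06 over the enzymes. At an unadjusted p under 0.05, 1 was lower and 1 higher, close to the shares over all genes. Without overlap, 4 of the 19 were lower and 2 higher, against 7.63% and 9.13% of all genes. The members had 6 of 29 lower in this way, so such a share was not particular to them. Srebf1, which encodes SREBP1, was at 11.07, 11.31 and 11.09 in the shRNA arrays and at 11.46, 11.50 and 11.86 in the scramble arrays, without overlap. Its log2 difference was -0.45 (SE 0.14, adjusted p = 0.416), and that of Acacb, an acetyl-CoA carboxylase, was 0.34. Of 14 genes that use isoprenoids, 8 had a lower mean and 6 a higher one, with a median of -0.03. Without overlap, 3 of the 14 were lower and 3 higher, against 7.63% and 9.13% of all genes. Dolk, dolichol kinase, had a difference of -0.58 (SE 0.10, adjusted p = 0.340), and Fntb, the beta subunit of farnesyltransferase, had 0.36 (SE 0.10, adjusted p = 0.401). None of these lists held a gene that passed after adjustment over all probes.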

How the data were processed

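RNA of N2A cells was hybridized to Affymetrix Mouse Gene 1.0 ST arrays, 3 for each construct. The authors deposited log2 values, 1 per probe. How these were summarized and normalized is not given in the sources used here. The arrays were alike in distribution, so the values look normalized between arrays, which is an inference. Precision is limited by having 3 arrays a group. No normalization was added in the main fit. Of 35556 probes, 21789 carried 1 symbol in the platform annotation, 1621 several and 12146 none.

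All probes were fitted with limma (3.58.1, R 4.3.3, lmFit followed by eBayes), with the construct as the only term, two-sided tests and Benjamini-Hochberg adjustment over all probes. Calls needed both an adjusted p under 0.05 and a difference of means over 0.5 on the log2 scale. The adjusted p follows the study's methods, which state the size of 0.5 for the variance between conditions, so its use on the difference of means is a choice made here. Intervals are 95% from the same fit. The fit was tested on simulated data. Alternatives were the replicate number as a block, quantile normalization, median centring, trended variance, array weights, a filter on dim probes, the mean of probes and arrays left out.

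The members and lists were chosen with earlier results of these data known. Array values are given for members without overlap or at an unadjusted p under 0.05 and for 8 landmark genes, and other lists are represented by up to 4 genes at an unadjusted p under 0.05, by size. These lists had 34 of 40, 19 of 20 and 14 of 16 genes measured.

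Same-numbered arrays deviated together from their group means (correlations over all probes 0.291, 0.137 and 0.103), which met the criterion for treating the numbers as pairs, although the labels do not say what a number stands for, and the deviations of shRNA replicate 2 were closer to those of scramble replicate 3 (0.199). Promoter windows came from RefSeq (GRCm38.p6).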

Additional observations from a re-analysis of the deposited data

How the results depend on the processing

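The median over the enzymes kept its direction in all 14 alternatives, as did that over SREBP control genes. The replicate block, trended variance and the filter on dim probes left these medians unchanged by construction, so they could not turn them. With arrays left out in turn, the enzyme median ranged from -0.42 to -0.24, that of SREBP control from -0.34 to -0.16 and that of transport and LXR from -0.049 to 0.024. The transport and LXR median turned to 0.04 without both arrays of replicate 1, to 0.012 without shRNA replicate 1 and to 0.024 without scramble replicate 2, and was -0.19 with array weights. Leaving out 1 array gave 4 to 13 members lower at an unadjusted p under 0.05, against 2.88% to 8.03% of all genes. It gave 6 to 16 lower without overlap, against 9.58% to 19.7%, a count that cannot fall when an array is left out. Centring on the array median gave 4 at an unadjusted p under 0.05 (3.68% of all genes), the replicate block 14 (7.35%) and array weights 17 (15.1%). Array weights, whose estimation did not converge, gave shRNA replicate 3 a weight of 5.32. They called 8 of 29 members, all lower, beside 1980 of all 35556 probes in either direction. The 13 other alternatives of the fit called 0 members. Without both arrays of replicate 1, 12 members were lower without overlap, against 29.2% of all genes.

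Idi1 and 6 members closer to 0 changed sign. Nsdhl was at 0.0033 with median centring, and without both arrays of replicate 1 Nsdhl was at 0.17, Mvk at 0.075, Idi1 at 0.045 and Stard4 at 0.042. With 1 array left out, Nsdhl ranged from -0.23 to 0.092, Ebp from -0.16 to 0.11, Hsd17b7 from -0.16 to 0.18, Mvk from -0.28 to 0.0087, Scap from -0.099 to 0.045 and Stard4 from -0.22 to 0.024. The replicate block changed no call of a member and called 1 probe in all, against 0 without it. The cause of these changes was not tested. Fits that leave the values as they are have no count of overlap.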
